A study of Sparus aurata with 9 samples.

Results

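miR-1 and miR-206 are microRNAs of striated muscle, and they were followed here in cultured muscle precursor cells of gilthead sea bream (Sparus aurata). Every entry of the small RNA table that carries either name was taken, whatever its arm or variant suffix. This gave 8 of 862 entries, each with its own sequence, 4 of miR-1 and 4 of miR-206. The cells came from fast-twitch skeletal muscle and were grown in complete medium to day 8 of culture, and 9 libraries fell into 3 groups of 3. By the study's account, proliferation still went on at day 8, while a considerable part of the cells had begun to fuse into myotubes. CTR cells were kept for 36 h in nutrient restriction medium. AA cells had 12 h of restriction followed by amino acids for 24 h. IGF1 cells had the same 12 h of restriction and then insulin-like growth factor 1 for 24 h, by the study's methods in a medium that still lacked amino acids, as that of CTR did throughout. By the same methods, cells were restricted in Earle's salts to which vitamins and glucose were added, the amino acids came in DMEM, and the growth factor was added with bovine serum albumin as carrier, so that a group contrast covers the whole medium. The study describes independent cultures, but the labels do not tell which libraries share a culture, and p-values therefore measure the spread between these libraries, part of which may be technical.

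A microRNA is cut from a hairpin, and each arm of the hairpin can give a mature strand. For miR-1 and miR-206 the 3p strand is the guide that an Argonaute protein carries to messenger RNAs, and the 5p strand is the passenger, most of which is broken down. Targets are found mainly through the seed, bases 2 to 8 of the guide, so microRNAs with the same seed can act on the same messengers. In mammals and zebrafish both are made in skeletal muscle, and in mammals they promote the differentiation of myoblasts and restrain messengers such as those of HDAC4 and PAX7. Their genes lie beside those of miR-133a and miR-133b in vertebrate genomes, and each pair is made from a shared primary transcript.

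The sequences below show what the members share and where they differ, with the seed in capitals.
miR-1: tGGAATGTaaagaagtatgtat
miR-206: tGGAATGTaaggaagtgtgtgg
miR-1-5p: aCATACTTctttatgtacccat
miR-206-5p: aCATGCTTccttatatccccata

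The guides of miR-1 and miR-206 were identical at 18 of 22 positions. The 4 differences, counted from 1 at the 5′ end with the base of miR-1 first, were A11G, A17G, A21G and T22G, all outside the seed. The seed GGAATGT occurred in 6 entries of the table, and all 6 were members. The passengers were identical at 18 of the first 22 positions and differed by A5G, T10C, G15A and A17C, so that the first of these fell within the seed. Each passenger seed occurred in 1 entry only.

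The other 4 members were longer forms of the guides, shown here with the bases that differ from the main entry in capitals. Each is named below by those bases.
miR-1-C: tggaatgtaaagaagtatgtatC
miR-1-CC: tggaatgtaaagaagtatgtaCC
miR-206-C: tggaatgtaaggaagtgtgtggC
miR-206-CA: tggaatgtaaggaagtgtgtggCA

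In the deposited table these entries stood as dre-miR-1_R+1, dre-miR-1_R+1_1ss22TC, dre-miR-206-3p_R+1 and dre-miR-206-3p_R+2, and the main entries as oni-miR-1, oni-miR-206, ssa-miR-1-5p and dre-miR-206-5p_1ss17GC. The prefixes name the fish whose hairpin matched (Nile tilapia, Atlantic salmon or zebrafish), and the suffixes give the difference from it. miR-1-CC differed from miR-1 by T22C and 1 added base.

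The hairpins that the study lists for its primer design place both strands of each microRNA, with the mature strands in capitals.
pri-miR-1-2: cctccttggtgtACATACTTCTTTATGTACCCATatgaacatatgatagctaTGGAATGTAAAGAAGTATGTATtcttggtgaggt
pri-miR-206: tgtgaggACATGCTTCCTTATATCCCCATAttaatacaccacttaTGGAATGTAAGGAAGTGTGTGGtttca

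miR-1-5p matched bases 13 to 34 and miR-1 bases 53 to 74 of the 86 nt hairpin, with 18 nt between the arms. miR-206-5p matched bases 8 to 30 and miR-206 bases 46 to 67 of the 72 nt hairpin, with 15 nt between them. After the guide both hairpins continued with T, whereas all 4 longer forms carried C as their first added base, and none of the 4 matched its hairpin. Other gene copies of miR-1 and miR-206, and their positions in the genome, were not analysed here.

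miR-206 was the fourth most abundant of the 830 sequences in the table by mean normalized reads, and miR-1 ranked 29. The passengers ranked 140 (miR-206-5p) and 319 (miR-1-5p), and the longer guides ranked 187 (miR-206-CA), 202 (miR-1-CC), 236 (miR-206-C) and 568 (miR-1-C). Normalized reads are the deposited unit, read numbers scaled between libraries by the authors. The members were 22 to 24 nt long, so reads were not divided by length, but capture in a small RNA library depends on sequence and levels of different microRNAs compare only roughly. Together the members held 6.68% ± 1.15 of the normalized reads of CTR libraries, 8.37% ± 0.710 of AA and 6.23% ± 0.681 of IGF1 (mean ± SD of 3 libraries). AA and IGF1 did not overlap in this share (exact permutation test, two-sided p = 0.1, the smallest that 3 against 3 allows).

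The reads behind the table, inferred from the step between low values, numbered 7045311 to 8010694 per CTR library, 9766620 to 11214788 per AA library and 7241678 to 9534840 per IGF1 library, so that AA libraries were the deepest. The part of depth in the results was not tested. Of the markers of other tissues, those of smooth muscle and fibroblast (miR-143, miR-145, miR-199 and miR-214) held 4.06 to 4.62% of normalized reads in CTR, 3.82 to 3.98% in AA and 4.09 to 4.75% in IGF1. The endothelial miR-126 held 1.10 to 1.32% over the 3 groups, and the blood list 0.0118 to 0.0205%. The epithelial list held 0.00802 to 0.00993% in CTR, 0.00511 to 0.00597% in AA and 0.00507 to 0.00815% in IGF1, and the liver microRNA miR-122 held 0.00598 to 0.00741%, 0.00356 to 0.00460% and 0.00377 to 0.00514%. The epithelial sum and miR-122 were thus lower in all AA libraries than in all CTR libraries, and miR-122 in all IGF1 libraries as well. The epithelial list was miR-200, miR-203, miR-205 and miR-429, while miR-141 had no entry. Over all libraries miR-203 spanned 157 to 561 normalized reads and miR-200 178 to 273. miR-205 and miR-429 reached at most 10.2 and 19.9. The summed smooth muscle and fibroblast list was likewise lower in all AA libraries than in all CTR and all IGF1 libraries. Its largest part was miR-199, at 155303 to 221906 normalized reads, and its smallest miR-145, at 12962 to 23201. An entry of that list, miR-145-3p, instead ran with miR-1 over the libraries (r = 0.91). The microRNAs within the epithelial list and within this one were not compared singly between groups. The neuronal list held 0.00117 to 0.00211% over the 3 groups, and miR-144, miR-429 and miR-124 were at 0 in some library. The part of these markers in the results was not tested. The other muscle microRNAs, miR-133 and miR-499, held 0.703 to 0.772% in CTR, 1.11 to 1.37% in AA and 0.819 to 1.14% in IGF1. In bulk RNA, fewer cells of a type, less RNA per cell and a share lowered by other microRNAs cannot be told apart.

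**Figure D1:**
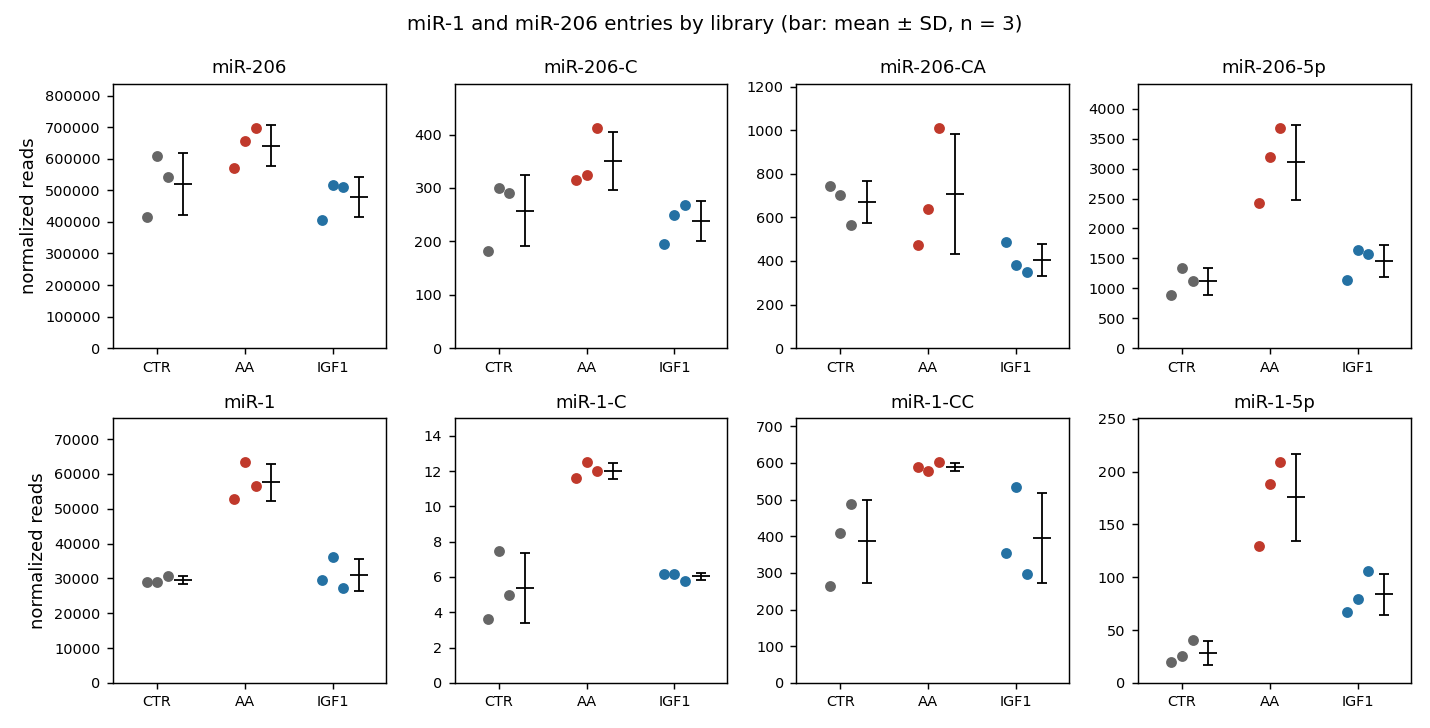
Normalized reads of the 8 members in the 9 libraries, 1 panel per entry, with points for libraries and bars for the group mean and SD (n = 3). The 3 AA libraries lie above all CTR libraries in every panel but those of miR-206 and miR-206-CA. The panel of miR-1-C shows 3 to 15 reads, and this entry met the filter only through AA.

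The miR-1 guide rose with amino acids. CTR libraries 1 to 3 held 28884, 29022 and 30736 normalized reads, AA libraries 52799, 63283 and 56657, and IGF1 libraries 29569, 36107 and 27349. All AA libraries lay above all others, and CTR and IGF1 overlapped. The rise of AA over CTR was 1.94-fold (95% interval 1.58 to 2.39), a log2 change of 0.96 (SE 0.13, adjusted p = 0.00393 by limma with Benjamini-Hochberg adjustment over the 594 entries tested). IGF1 differed from CTR by 0.06 on the log2 scale (interval -0.24 to 0.36, adjusted p = 0.890).

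The miR-206 guide stood far higher and did not pass the test. CTR libraries held 414701, 608549 and 541240 normalized reads, AA libraries 571305, 656654 and 698837, and IGF1 libraries 405254, 518724 and 511884. AA overlapped CTR through CTR 2, and CTR also overlapped IGF1. The log2 change of AA over CTR was 0.31 (SE 0.16, interval -0.04 to 0.67, adjusted p = 0.347), and that of IGF1 over CTR was -0.11 (SE 0.16, interval -0.47 to 0.24, adjusted p = 0.788). Neither passed the threshold of 0.05, and the first interval includes both 0 and a rise.

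Both passengers rose with amino acids. miR-1-5p was at 19.3, 25.4 and 41.0 normalized reads in CTR, which stand for 16, 22 and 37 reads, at 130, 188 and 209 in AA (168, 226 and 226 reads) and at 67.6, 79.0 and 106 in IGF1 (77, 77 and 91 reads). The 3 groups did not overlap, in the order CTR, IGF1, AA. The rise of AA over CTR was 6.13-fold (interval 3.78 to 9.96, log2 change 2.62, SE 0.31, limma adjusted p = 0.00185). The log2 change of IGF1 over CTR was 1.57 (SE 0.31, interval 0.87 to 2.27) and did not pass the threshold after adjustment (adjusted p = 0.114), although all 3 IGF1 libraries lay above all CTR libraries. With the replicate number as a block it passed when all 9 libraries were fitted (adjusted p = 0.0126) and did not when the 6 libraries of both groups were fitted alone (adjusted p = 0.112).

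miR-206-5p was at 884, 1331 and 1128 normalized reads in the CTR libraries, at 2432, 3198 and 3684 in those of AA and at 1143, 1646 and 1568 in those of IGF1. AA lay above both other groups in every library, and CTR and IGF1 overlapped. AA over CTR was 2.78-fold (interval 1.96 to 3.95, log2 change 1.48, SE 0.23, limma adjusted p = 0.00626). IGF1 over CTR was 0.38 on the log2 scale (SE 0.23, interval -0.12 to 0.89, adjusted p = 0.568).

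None of the longer guides passed the threshold in AA against CTR. miR-1-CC, the more abundant longer form of miR-1, was at 263, 409 and 487 normalized reads in the CTR libraries, 589, 579 and 601 in the AA libraries and 355, 534 and 297 in the IGF1 libraries. AA lay above both other groups in every library and varied little, with a log2 change over CTR of 0.65 (SE 0.27, limma adjusted p = 0.258). miR-206-C was at 181, 299.9 and 291 in CTR, 314, 324 and 413 in AA and 196, 250.3 and 268 in IGF1, with a log2 difference of 0.47 between AA and CTR (SE 0.23, adjusted p = 0.347). It followed the miR-206 guide from library to library, with Pearson's r of 0.97 on the log2 scale over the 9 libraries, a description of entries from the same libraries.

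miR-206-CA did not follow that pattern. CTR libraries held 745, 701 and 563 normalized reads, AA libraries 474, 636 and 1011, and IGF1 libraries 486, 382 and 348. AA spanned the widest range, from below all CTR libraries to above them, and its log2 change over CTR was 0.02 (SE 0.27, limma adjusted p = 0.978). All IGF1 libraries lay below all CTR libraries, by 0.73 on the log2 scale (change -0.73, SE 0.27, interval -1.33 to -0.12), which did not pass after adjustment (adjusted p = 0.373). Over the 9 libraries its r with the other members ran from -0.07 to 0.40.

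miR-1-C was near the limit of detection. CTR libraries held 3.62, 7.50 and 4.98 normalized reads, AA libraries 11.6, 12.5 and 12.0, and IGF1 libraries 6.14, 6.15 and 5.80, where 3 reads correspond to between 2.32 and 3.62 normalized reads. The 9 values stand for 3 to 15 reads. It met the filter, at least 10 normalized reads in at least 3 libraries, only through its AA libraries. It was therefore left out of all counts over members. All 72 values of the members were multiples of 0.5 reads within 0.02 reads, and 64 were whole. The 8 others fell among the 27 values of the miR-1 guides, so some reads had been divided between entries there.

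Over the other 7 members, all at 10 normalized reads or more in every library, 3 rose and 0 fell in AA against CTR at the threshold by limma (0 fell at an unadjusted p under 0.05 as well), where 1.85% of the 594 entries tested rose and 0.505% fell. Their median log2 change was 0.65 and all 7 values were above 0, beside a median of 0.08 over all entries. In 5 of the 7 all AA libraries lay above all CTR libraries, as in 12.6% of all entries tested. The 7 are guides, longer guides and passengers of 2 microRNAs in the same libraries, so they are not separate observations. In IGF1 against CTR 0 of the 7 passed in limma, as did 0% of all entries (at an unadjusted p under 0.05, 2 members and 61 of the 594, or 10.3%), and the median change was 0.03 beside 0.05 over all entries. With the replicate block over 9 libraries 1 of the 7 rose, miR-1-5p, as did 0.337% of all entries, and with the block over the 6 libraries compared 0 did. Of the 7, IGF1 was above CTR in all libraries in 1 (5.56% of all entries) and below in 1 (7.74%). Both treatments were set against the same CTR libraries.

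**Figure D2:**
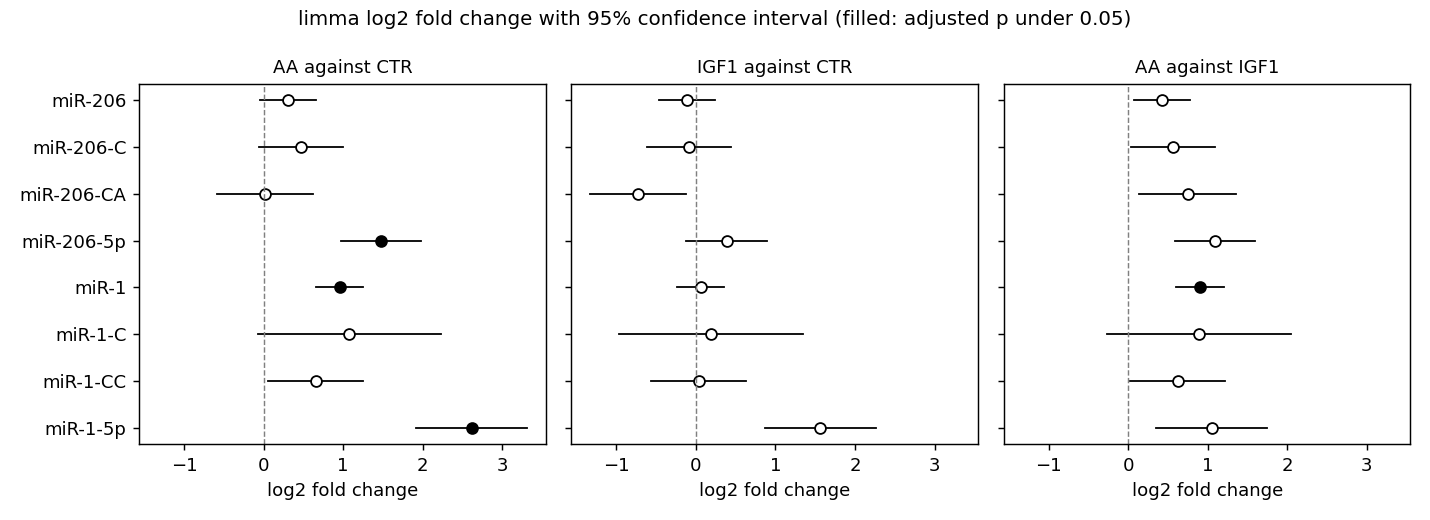
Log2 change of each member in the 3 comparisons of groups, with 95% intervals from limma, filled where the adjusted p is under 0.05. The filled points are miR-1, miR-1-5p and miR-206-5p for AA against CTR, and miR-1 alone for AA against IGF1. miR-1-C met the filter only through AA.

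AA against IGF1 tests directly whether the effects of both treatments differed. miR-1 was higher in AA, by 0.90 on the log2 scale (SE 0.13, 1.86-fold, interval 1.52 to 2.29, limma adjusted p = 0.0168). This call was lost without AA 2 (adjusted p = 0.148), AA 3 (0.0846), IGF1 1 (0.0723) or IGF1 3 (0.0645), and without the intensity trend (0.0662), while the change stayed between 0.81 and 1.01 when any 1 library was left out. miR-206-5p was 1.09 higher (SE 0.23, adjusted p = 0.0617), and passed without CTR 1 (0.0330) or AA 1 (0.0472). It also passed with a filter at 50 normalized reads, with weights per library and with the replicate block (limma adjusted p = 0.00539). miR-1-5p was 1.05 higher (SE 0.31, adjusted p = 0.203), and passed with weights per library and with the replicate block (limma adjusted p = 0.0288). The block pairs AA with IGF1 by number. Of such pairs 2 of 3 correlated over 0.1, and the numbers were not taken to pair these groups. miR-206 was 0.43 higher (SE 0.16, interval 0.08 to 0.78, adjusted p = 0.454). In 6 of the 7 members all AA libraries lay above all IGF1 libraries, as in 9.6% of all entries, and 1 passed the threshold, as did 0.842% of all entries. The exception to the first count was miR-206-CA, where the groups overlapped.

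Because both microRNAs share a seed, their guide reads were also set against each other within each library, where any scaling of the library cancels. For each miR-1 guide read, all 3p forms summed, there were 14.3, 20.7 and 17.4 miR-206 guide reads in CTR, 10.7, 10.3 and 12.2 in AA and 13.6, 14.2 and 18.5 in IGF1. AA lay below both other groups in every library, which overlapped each other. miR-1 thus gave 5.54% ± 0.976 of the summed guide reads of CTR, 8.32% ± 0.674 of those of AA and 6.19% ± 0.940 of those of IGF1 (mean ± SD of 3 libraries), and miR-206 the rest. The log2 ratio of miR-1 to miR-206 was 0.64 higher in AA than in CTR (SE 0.17) and 0.47 higher than in IGF1 (SE 0.16), each with an exact two-sided permutation p of 0.1, the smallest possible, and 0.225 after adjustment over 18 such tests. With 3 libraries a group this exact test could not reach 0.05 for any measure. IGF1 and CTR differed by 0.17 (SE 0.21, exact p = 0.5).

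The summed guides, all of which carry the seed, were at 552363 ± 98788 normalized reads in CTR libraries, 701504 ± 68250.0 in AA libraries and 510673 ± 65268 in IGF1 libraries (mean ± SD of 3). Most of this sum was miR-206 in every library, and the CTR and AA ranges, 444778 to 638989 and 625493 to 757532, overlapped. The IGF1 range, 435866 to 556003, overlapped that of CTR and lay below that of AA.

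The passenger was set against its guide in the same way. The study's methods speak of gene copies with similar mature sequences, and copies were not analysed here. Guide entries may therefore hold reads of gene copies that the passenger entry does not. Per 1000 guide reads of miR-1 there were 0.663, 0.862 and 1.31 reads of miR-1-5p in CTR, 2.43, 2.95 and 3.64 in AA and 2.26, 2.15 and 3.82 in IGF1. Both treated groups lay above CTR in every library and overlapped each other. The log2 ratio of 5p to 3p was 1.71 higher in AA than in CTR (SE 0.33, exact p = 0.1) and 1.54 higher in IGF1 than in CTR (SE 0.39, exact p = 0.1), while AA and IGF1 differed by 0.16 (SE 0.31, exact p = 0.6).

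For miR-206 the values were close within groups. There were 2.13, 2.18 and 2.08 reads of miR-206-5p per 1000 guide reads in CTR, 4.25, 4.86 and 5.26 in AA and 2.82, 3.17 and 3.06 in IGF1. The 3 groups did not overlap, in the order CTR, IGF1, AA. The log2 ratio was 1.16 higher in AA than in CTR (SE 0.09), 0.50 higher in IGF1 than in CTR (SE 0.05) and 0.66 higher in AA than in IGF1 (SE 0.10), each at the smallest exact permutation p of 0.1.

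**Figure D3:**
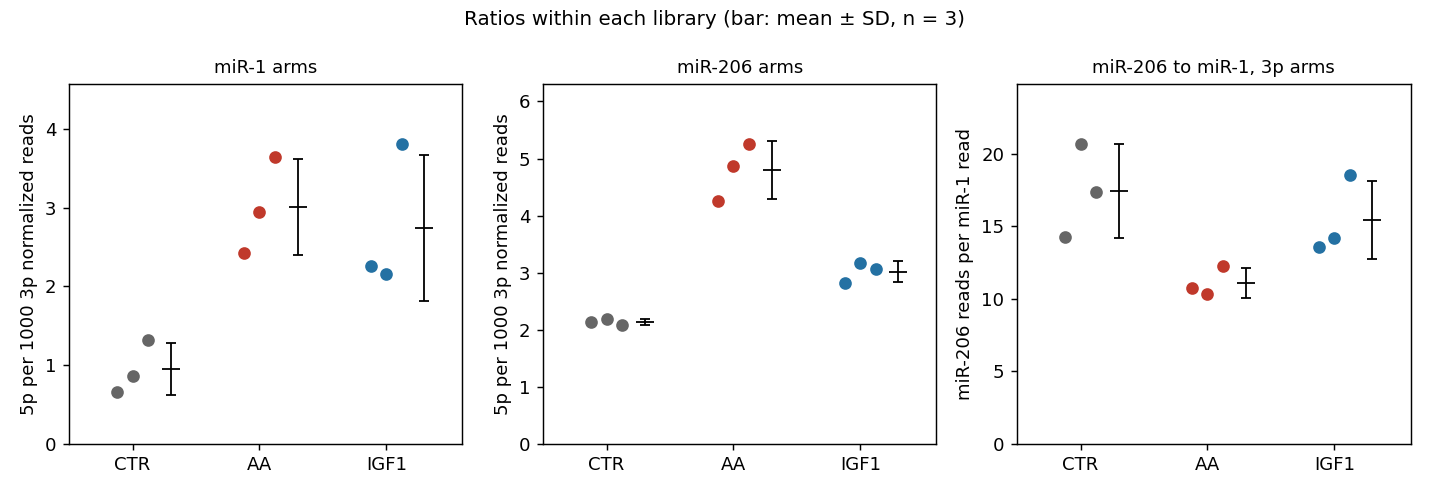
Reads of the 5p passenger per 1000 reads of the 3p guide for miR-1 and for miR-206, and miR-206 guide reads per miR-1 guide read, in each library (points) with the group mean and SD (n = 3). For miR-206 the passenger share separates all 3 groups, from 2.08 to 2.18 in CTR over 2.82 to 3.17 in IGF1 to 4.25 to 5.26 in AA.

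To see how other microRNAs behaved, the log2 ratio of the minor to the major arm was fitted in limma for 105 microRNAs. These had entries placed in both arms, and the comparison was chosen after the values above had been seen. An entry without an arm in its name joined the named arm whose bases it shared, or else the arm without named entries. Others were left out. These placements were not checked, so some ratios may pair wrong strands, and the medians, shares and ranks below rest on them. Those of miR-1 and miR-206 are the strands shown above. Each sum had 1 added, which makes changes of low arms smaller than in the plain ratio above. The median change over the 105 was 0.29 in AA against CTR, with 72 above 0, and 0.11 in IGF1 against CTR, with 66 above 0. The ratio was thus higher for most of the 105 as placed, whichever arm changed. In AA against CTR the ratio of miR-1 changed by 1.66 (SE 0.32, adjusted p = 0.0387, the third highest change) and that of miR-206 by 1.16 (SE 0.16, adjusted p = 0.00799, the eighth), and 3.81% of the 105 rose at that threshold. The call of miR-1 was lost without CTR 2 (adjusted p = 0.104), AA 1 (0.0800), AA 2 (0.121), AA 3 (0.0833), IGF1 1 (0.0514) or IGF1 2 (0.0648), and that of miR-206 without AA 2 (0.0813). The changes themselves stayed between 1.44 and 1.92 for miR-1 and between 1.09 and 1.25 for miR-206 when any 1 library was left out.

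In IGF1 against CTR the log2 arm ratio of miR-1 differed by 1.51 (SE 0.32, limma adjusted p = 0.132) and that of miR-206 by 0.50 (SE 0.16, adjusted p = 0.246), and 0% of the 105 passed (17, or 16.2%, at an unadjusted p under 0.05, both among them). The ratio of miR-1 passed without CTR 3 (adjusted p = 0.0273) and with the replicate block over 9 libraries (0.0109, where 0.952% rose), and did not with the block over the 6 libraries compared (0.125). In AA against IGF1 the differences were 0.15 for miR-1 (SE 0.32, adjusted p = 0.962) and 0.66 for miR-206 (SE 0.16, adjusted p = 0.112, and 0.0495 without CTR 1), where 0.952% rose.

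**Figure D4:**
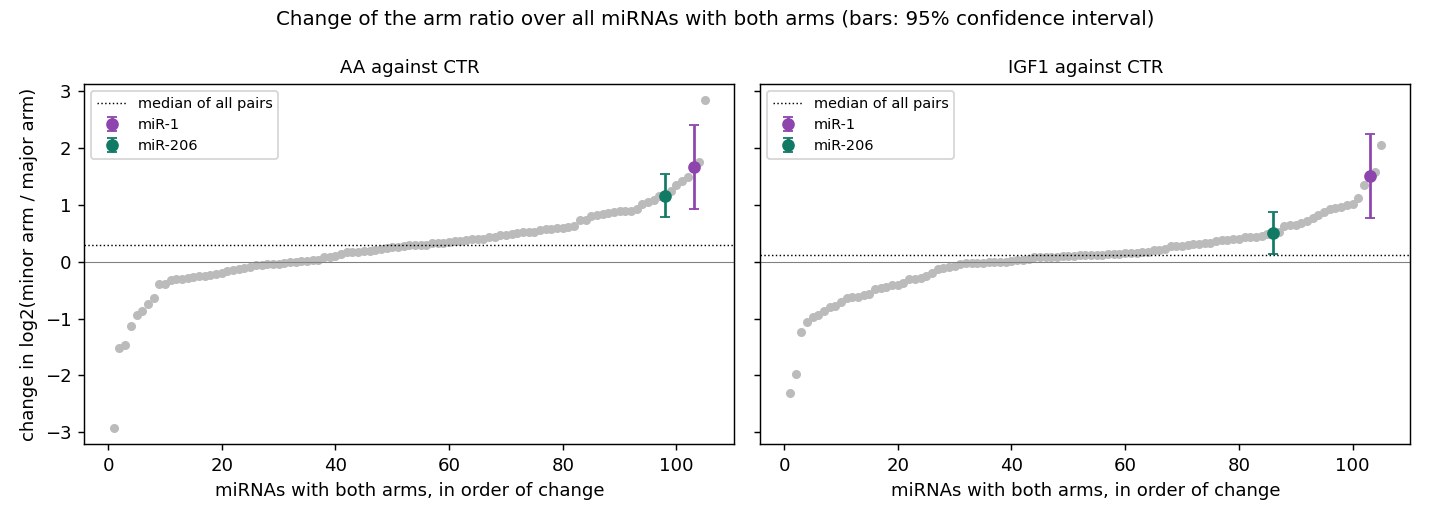
Change in the log2 ratio of minor to major arm for 105 microRNAs with entries placed in both arms, placements unchecked, in rising order. The panels show AA against CTR and IGF1 against CTR, with miR-1 and miR-206 marked and the median dotted. miR-1 is the third highest in both, and miR-206 is the eighth in AA against CTR and ranks 20 in IGF1 against CTR.

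The longer forms took a small part of the guide reads. For miR-1 they held 1.30% ± 0.344 of CTR, 1.04% ± 0.103 of AA and 1.26% ± 0.196 of IGF1 guide reads, and for miR-206 0.182% ± 0.0359, 0.162% ± 0.0358 and 0.137% ± 0.0272 in the same order (mean ± SD of 3 libraries). All groups overlapped for both microRNAs, with exact permutation p from 0.2 to 0.9. Within miR-206, the form with 2 added bases outnumbered that with 1 in every library, by 1.30 to 4.11 reads to 1.

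The other muscle microRNAs of the table, all entries of miR-133 and miR-499, comprised 6 entries with 5 sequences. miR-133 shares its primary transcripts with miR-1 and miR-206, and miR-499 is encoded within a slow myosin gene. With AA 2 of the 5 rose over CTR, as did 1.85% of the 594 entries tested. The median log2 change of the 5 was 1.64, beside 0.08 over all entries. With IGF1 0 of 5 passed in limma, as did 0% of all entries. At an unadjusted p under 0.05, 2 of 5 and 10.3% of all entries did. The median with IGF1 was 0.69, beside 0.05 over all entries. Both that rose were passengers. miR-133b-5p was at 714 ± 147 normalized reads in CTR libraries and at 4159 ± 1319 in AA libraries (log2 change 2.51, limma adjusted p = 0.00761). miR-133a-2-5p was at 2463 ± 514 and at 9186 ± 1744 (1.90, adjusted p = 0.000985, all as mean ± SD of 3 libraries). The miR-133 guide, which the table lists for miR-133a and miR-133b alike, was at 55700.1 ± 5253 in CTR and 87737 ± 9497 in AA (0.65, adjusted p = 0.0689), and miR-499 at 2254 ± 617 and 4022 ± 678 (0.86, adjusted p = 0.111). miR-499b-3p was 1.64 higher in AA (adjusted p = 0.0680). In AA against IGF1 1 of 5 passed, miR-133a-2-5p (1.12, adjusted p = 0.0310), as did 0.842% of all entries.

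The entries outside the members whose log2 levels ran most like those of miR-1 over the 9 libraries were miR-181b-3p (r = 0.94), the predicted candidate PC-3p-5483_456 (0.92), let-7a-3-3p (0.92), miR-145-3p (0.91) and miR-133a-2-5p (0.87). For miR-206 they were let-7d-3p (0.95), miR-181b (0.94), miR-146a-3-3p (0.91), mir-365-p5 (0.89) and mir-216a-p3 (0.89), and for miR-206-5p they were mir-17a-1-p3 (0.95), miR-125a-2-3p (0.92), let-7a-3-3p (0.91), miR-145-3p (0.91) and the miR-133 guide (0.90). miR-206-CA was most like the miR-217 entry with the suffix R+2 (0.97). Variant suffixes of the other names are left out here. The miR-1 and miR-206 guides had an r of 0.71 with each other, and miR-1 and miR-206-5p 0.92. These are descriptions over 9 libraries that share their scaling and 3 group levels.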

How the data were processed

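Single-end reads of small RNA libraries were trimmed by the authors, who kept unique sequences of 18 to 26 nt and assigned them by BLAST to miRBase (22.0 and 22.1) hairpins. Values were deposited as normalized reads, a signal per entry and library; the formula of the normalization is not given in the sources used here. The deposited group means and the authors' p-values over the groups were not used. The value of 1 read was inferred per library from low values (79.3 to 83.1% of values under 150 normalized reads were whole reads within 0.02), so no count model was run.

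Of 862 entries, the 594 that reached 10 normalized reads in 3 or more libraries were tested as log2(normalized reads + 1), a scale on which changes of low entries come out too small, in 1 limma 3.58.1 model (R 4.3.3) over 9 libraries with an intensity trend. Two-sided p-values were adjusted over all these entries (Benjamini-Hochberg), with a threshold of 0.05. Within-library measures were compared by exact permutation tests over 3 pairs of groups, 18 tests in all. Ratios of arms over 105 microRNAs, with 1 added to the sum of each arm, were fitted without the trend, a fit added after the values were seen. Fits were also run on simulated data, drawn independently for each library with changes placed in AA only. Such data hold no spread shared between same-numbered libraries. Python 3.11.15, pandas 2.3.3 and matplotlib 3.10.9 served for tables and plots. Named microRNAs were all entries of miR-1, miR-206, miR-133 and miR-499, any entry with a member's seed, and the 5 entries most correlated with each member whose mean was at least 100 normalized reads. Deviations of same-numbered libraries from their group means correlated at 0.30 to 0.40 for CTR and IGF1 (3 of 3 pairs over 0.1). The numbers were therefore taken to pair these groups, and blocked values are given where they change a call. These correlations come from the same data and are not independent of each other, and the main values stayed unpaired. For AA with CTR and AA with IGF1, 1 and 2 of 3 same-numbered pairs correlated over 0.1, and the labels name no shared culture. Members, lists and tests were chosen with earlier results of these data known. Alternatives covered pseudocount, filter, scaling, variance model, library weights, libraries in the fit, a replicate block, single sequences and leaving out each library. Intervals on fold changes cover the spread between libraries, and limits from read numbers cover counting error only.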

Additional observations from a re-analysis of the deposited data

Results flagged for a closer look

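For miR-1, the effects of the amino acids and of the growth factor, each against CTR, differed by a direct test. AA was 0.90 above IGF1 on the log2 scale (SE 0.13, limma adjusted p = 0.0168), and higher in 3 of 3 libraries, at 52799 to 63283 normalized reads against 27349 to 36107. The call was lost without the intensity trend and without AA 2, AA 3, IGF1 1 or IGF1 3.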

How the results depend on the processing

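The AA against CTR calls of miR-1, miR-1-5p and miR-206-5p held under all 21 alternatives, with adjusted p up to 0.0274, 0.0178 and 0.0464. The number of members past the threshold in AA against IGF1, 1 of 7, was 2 with a filter at 50 normalized reads, 0 without the intensity trend, 3 with weights per library and 0 to 2 when 1 library was left out (0 without AA 2, AA 3, IGF1 1 or IGF1 3, and 2 without CTR 1 or AA 1). Over all entries 5 of 594 rose in the main fit and 8 of 420 with that filter. Of the 594, 1 rose without the trend, 14 with weights, and 1 to 11 when 1 library was left out. With weights per library miR-1-5p also passed in AA against IGF1 (adjusted p = 0.0285). The causes were not tested.

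Across all groups the own number correlated best in 13 of 18 comparisons, which reuse the same correlations and are not independent. The labels do not tell what same-numbered libraries share. For the contrasts with AA, 3 of 6 same-numbered pairs correlated over 0.1, and the numbers were not taken to pair those libraries. A replicate block gave 1 member past the threshold in IGF1 against CTR (miR-1-5p, adjusted p = 0.0126) and 3 in AA against IGF1, raised the calls over all entries in AA against CTR from 14 to 31, and passed the arm ratio of miR-1 in IGF1 against CTR (adjusted p = 0.0109). Under this block 2 of the 594 entries rose in IGF1 against CTR and 9 in AA against IGF1. With the block over the 6 CTR and IGF1 libraries alone, chosen after seeing the data, 0 members passed in IGF1 against CTR.

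Changes near 0 turned sign. Leaving out 1 library gave log2 changes in IGF1 against CTR from -0.0547 to 0.15 for miR-1, -0.0207 to 0.42 for miR-1-C, -0.22 to 0.22 for miR-1-CC, -0.27 to 0.0057 for miR-206 and -0.32 to 0.0442 for miR-206-C, and in AA against CTR from -0.28 to 0.27 for miR-206-CA. The share of longer forms changed by -0.236 to 0.0932 percentage points for miR-1 (IGF1 against CTR) and -0.0397 to 0.00145 for miR-206 (AA against CTR), and the members' share of reads by -1.05 to 0.104 (IGF1 against CTR). miR-206-CA in AA against CTR was at -0.0039 with equal library totals and -0.0218 with quantile normalization, miR-1-C in IGF1 against CTR at -0.61 with quantile normalization, and miR-1-CC in IGF1 against CTR at -0.21 with weights per library. miR-1-C, at 3 to 15 reads, is limited by depth.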
